A study of Mus musculus with 3 samples.

Results

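The proximal region of mouse chromosome 14, from 3.0 to 8.0 Mb of build mm9, held 4235 of the 348759 intervals in a list of potential open-chromatin peaks from embryonic stem cells. An interval was counted as a member when its midpoint lay in these 5 Mb. The region was chosen from measured values, since it had been noticed for its many narrow, low-score intervals. Its count, coverage, widths and scores are therefore given as a description, without a test. The comparison stretch was 8 to 20 Mb of the same chromosome without 17.09 to 17.37 Mb, which left 11.72 Mb with 1389 intervals.

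The series comprised 3 samples of wild type mESCs (mouse embryonic stem cells) of strain 129Sv-C57Bl/6, grown without feeder cells. One was a FAIRE library of cells treated with ICRF-193 at 500 nM over 16 h, another a FAIRE library of cells kept in DMSO over 16 h, and the last an input library of genomic DNA. Both treatments are recorded as starting at 32 h. Each FAIRE sample carries replicates 1 and 2 in its title, so each group had 1 sample. ICRF-193 is a catalytic inhibitor of topoisomerase II, and DMSO is its solvent. The single list analysed does not assign intervals to samples, so no value below compares ICRF-193 with DMSO, and the sequencing depth is unknown. The cell type was not checked against marker loci, because an mm9 annotation was not used here.

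In FAIRE, formaldehyde fixes proteins to DNA and the DNA that stays free of protein on extraction is sequenced, so that promoters and enhancers bare of nucleosomes stand out. F-Seq, the program named with the list, smooths aligned reads into a density and reports the stretches above a threshold. Duplicated sequence is a known difficulty for such maps, because a short read from one copy can match several places in the reference. The proximal part of mouse chromosome 14 is known for tandem copies of a gene family named after takusan, whose products were described at synapses of neurons. The sources used here do not say how reads with several matches were placed.

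The name of the region as duplicated was checked on RefSeq promoters of assembly GRCm38.p6, each 300 bases around a gene start. No position was carried from that assembly to mm9, so these sequences describe the genes at this end of the chromosome and not single intervals. In the GRCm38.p6 gene table, 157 genes of chromosome 14 start between 3 and 7.5 Mb. Of these, 144 carried predicted-gene symbols (Gm and a number), 73 were protein coding and 48 were pseudogenes. Promoters were at hand for 99 of the 157 genes. The most alike promoter of another gene of the set, leaving out overlapping windows, was a median of 96.7% identical (interquartile range 86.2 to 99.7%). For 69 genes (69.7%) it was at least 90% identical, and for 23 it was identical over all 300 bases. In the same assembly, 78 genes start between 8 and 16 Mb. Of these, 40 carried predicted-gene symbols, 28 were protein coding and 28 were pseudogenes. The share of pseudogenes was thus not higher among the proximal genes. Promoters were at hand for 43 of the 78 genes, the median best identity was 50%, and 0 genes reached 90%. The distribution of best identities shows the proximal genes mostly above 80% and the comparison genes near 50%, so the name duplicated held for the genes there. Within the proximal set, each promoter shared a median of 84.1% of its 30-base words with promoters of other genes, and 48 of 147 promoters shared every such word. In the comparison set, each of the 57 promoters shared none.

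**Figure D1:**
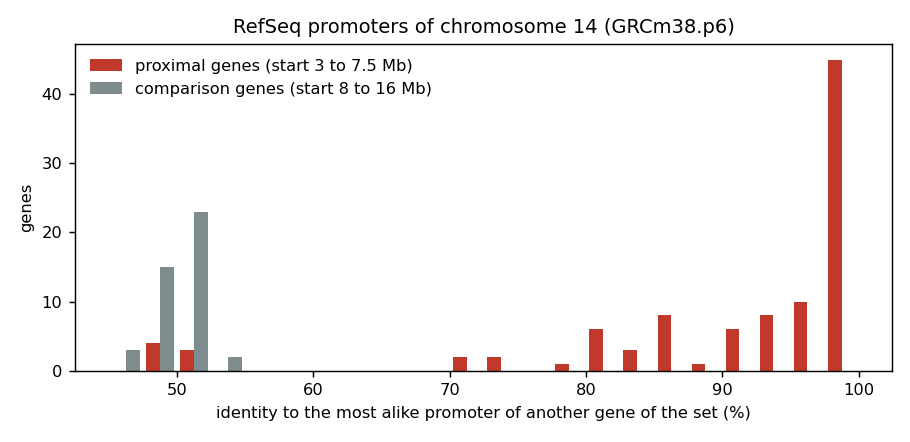
Number of genes (y axis) by the percent identity of their promoter to the most alike promoter of another gene of the same set (x axis, bins of 2.5 points), from RefSeq GRCm38.p6, for 99 proximal genes (start 3 to 7.5 Mb) and 43 comparison genes (start 8 to 16 Mb). The proximal genes have a median of 96.7%, and the comparison genes have a median of 50% with 0 genes at 90%.

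Sequences are shown from the proximal genes because they display how alike the copies are. Linking promoters at 90% identity gave 22 families of 2 or more genes, and the largest had 20 genes. The promoter of Gm8279 was the most central of that largest family. The promoter of Gm3685 was its nearest non-identical relative (99% identity), and that of Gm3278 was the most different from it within the family (91.7%). Capitals mark the bases of the later sequences that do not match Gm8279 when aligned. The windows are chr14:5131332-5131631 on the plus strand, chr14:7044858-7045157 on the minus strand and chr14:4892171-4892470 on the plus strand of GRCm38.p6, and these positions cannot be compared with the mm9 positions given further on.
Gm8279: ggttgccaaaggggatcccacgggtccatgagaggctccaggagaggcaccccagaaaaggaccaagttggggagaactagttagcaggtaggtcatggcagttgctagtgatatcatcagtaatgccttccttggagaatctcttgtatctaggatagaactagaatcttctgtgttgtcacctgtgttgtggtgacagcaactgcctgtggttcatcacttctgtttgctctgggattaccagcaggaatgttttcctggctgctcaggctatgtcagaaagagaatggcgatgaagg
Gm3685: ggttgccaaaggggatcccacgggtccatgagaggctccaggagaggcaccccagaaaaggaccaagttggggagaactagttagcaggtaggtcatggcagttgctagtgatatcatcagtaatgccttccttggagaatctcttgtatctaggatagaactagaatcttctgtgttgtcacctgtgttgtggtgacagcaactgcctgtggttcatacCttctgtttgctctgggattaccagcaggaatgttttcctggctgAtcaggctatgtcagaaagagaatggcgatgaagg
Gm3278: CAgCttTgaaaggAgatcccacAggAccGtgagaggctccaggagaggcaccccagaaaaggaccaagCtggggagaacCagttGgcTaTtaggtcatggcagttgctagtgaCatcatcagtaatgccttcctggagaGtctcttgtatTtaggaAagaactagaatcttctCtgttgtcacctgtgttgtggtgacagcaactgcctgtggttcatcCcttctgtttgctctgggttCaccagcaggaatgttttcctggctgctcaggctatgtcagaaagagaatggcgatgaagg

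The promoter of 2610042L04Rik, which the table gives as takusan, is shown with its most alike relative, Gm3411, at 93.0% identity. Capitals mark the bases of Gm3411 that do not match takusan. The windows are chr14:4334513-4334812 on the plus strand and chr14:6287201-6287500 on the minus strand of GRCm38.p6. The takusan promoter was rich in CpG, with 28 CpG in 300 bases and a GC content of 70.7%, whereas the family of 20 genes had a median of 2 CpG and 49.3% GC. CpG-rich promoters are the kind most often free of nucleosomes in stem cells. Over the proximal promoters the median was 2 CpG, against 7 CpG over the promoters of the comparison genes.
2610042L04Rik: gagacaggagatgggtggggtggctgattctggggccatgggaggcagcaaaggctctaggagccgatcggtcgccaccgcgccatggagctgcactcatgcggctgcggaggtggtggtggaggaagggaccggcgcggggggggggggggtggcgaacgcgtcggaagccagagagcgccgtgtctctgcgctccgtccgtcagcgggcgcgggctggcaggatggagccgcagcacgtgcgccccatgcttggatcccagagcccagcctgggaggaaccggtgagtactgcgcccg
Gm3411: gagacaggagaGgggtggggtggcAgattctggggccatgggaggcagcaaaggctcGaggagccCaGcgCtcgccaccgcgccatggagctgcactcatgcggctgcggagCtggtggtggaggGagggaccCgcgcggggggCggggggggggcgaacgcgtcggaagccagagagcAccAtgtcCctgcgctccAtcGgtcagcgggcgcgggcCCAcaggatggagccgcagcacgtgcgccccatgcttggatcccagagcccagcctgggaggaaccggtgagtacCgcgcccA

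Intervals were crowded in the proximal region. It had 847 intervals per Mb, against 119 per Mb in the comparison stretch, a ratio of 7.15. Intervals covered 10.5% of the bases of the region (525 kb) and 1.33% of the comparison stretch (156 kb), a ratio of 7.88. The autosomes as a whole had 143 intervals per Mb and 1.64% of bases covered. The region held 24.5% of all intervals of chromosome 14. Among 473 windows of 5 Mb on the 19 autosomes, it had the most intervals, against a median of 598 per window, and the second highest coverage. The starts of other chromosomes were less crowded, since the first 5 Mb of the other 18 autosomes had 33.6 to 357 intervals per Mb (median 112), and none exceeded the proximal region of chromosome 14.

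The crowding did not stop at 8.0 Mb. The last member ended at 7985640 and the first interval outside started at 8005856, 20.2 kb further on, and 87 gaps within the region also reached 10 kb. The 5 bins of 100 kb from 8.0 to 8.5 Mb held 96 to 169 intervals each, and together they had 1350 intervals per Mb, more than the region itself. They contributed 675 of the 1389 intervals of the comparison stretch, or 48.6%. The bin from 8500001 to 8600000 then held 7 intervals. The next bins, from 8600001 to 9100000, held 69, 30, 37, 36 and 25. The median of all bins beyond 8.5 Mb was 3. With the comparison started at 8.5 Mb, an edge chosen after the bins had been seen, the comparison had 63.6 intervals per Mb and 0.706% of bases covered. The ratios were then 13.3 for density and 14.8 for coverage, with the bins of 25 to 69 intervals still in the comparison.

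**Figure D2:**
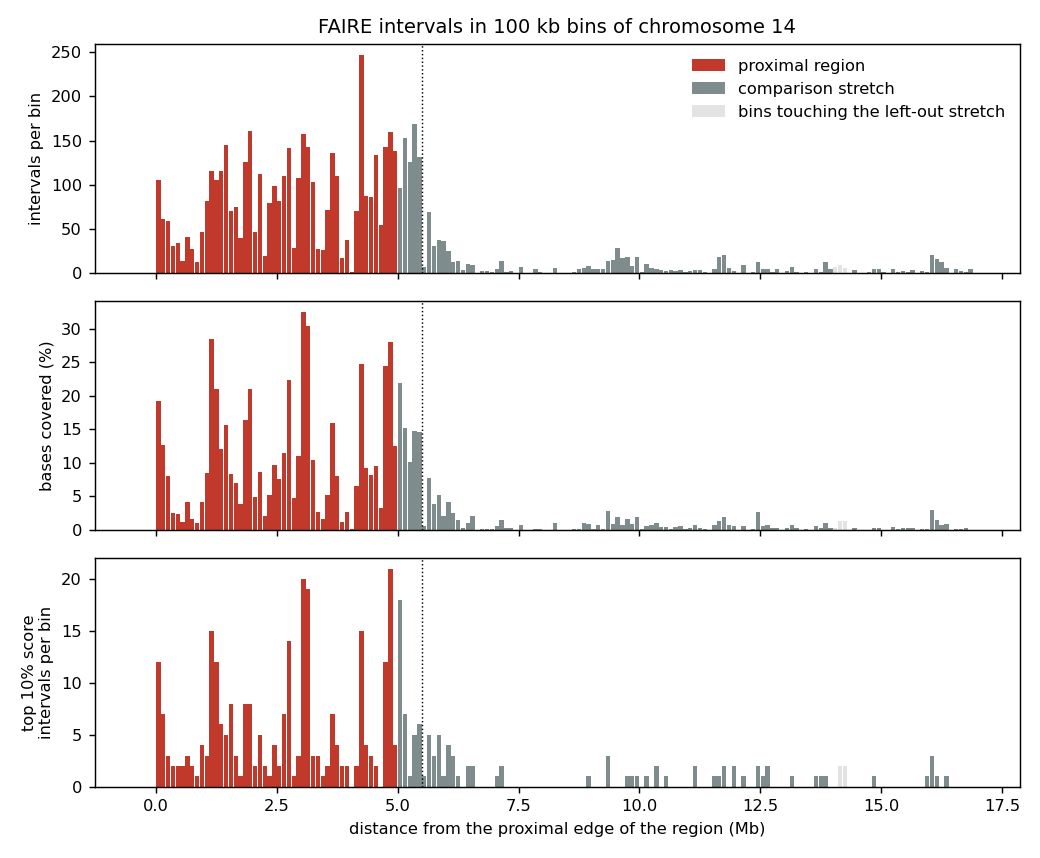
Intervals per 100 kb bin, percent of bases covered and number of intervals in the top 10% of the list by score (y axes) along chromosome 14, by distance from the proximal edge of the region in Mb (x axis). The region is red, the comparison stretch grey and bins touching the left-out stretch pale. High bins, with low ones between them, run through the region and go on to the dotted line at 8.5 Mb of mm9. All comparison bins beyond that line hold 69 intervals or fewer.

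The 50 bins of the region were uneven. They held 1 to 247 intervals, with a median of 81.5 and a mean of 84.7 ± 51.4 (SD over 50 bins). No bin was empty and 21 bins held at least 100 intervals. In the 116 bins of the comparison stretch the median was 3.5 intervals and 21 bins were empty. All 4 comparison bins with at least 100 intervals lay between 8.0 and 8.5 Mb, and 31 of the 50 bins of the region exceeded the fullest bin beyond 8.5 Mb. The variance of the counts was 31.2 times their mean in the region, against 67.5 times in the comparison stretch and 14.6 times beyond 8.5 Mb.

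By Mb, the region was sparsest at its start. There were 429 intervals between 3.0 and 4.0 Mb, 1035 between 4.0 and 5.0 Mb, 824 between 5.0 and 6.0 Mb, 827 between 6.0 and 7.0 Mb and 1120 between 7.0 and 8.0 Mb. Coverage followed a similar course, with 5.71%, 14.2%, 8.76%, 11.1% and 12.6% of bases. The first bin, next to the assembled start of the chromosome, stood above the rest of the first Mb with 105 intervals and 19.2% of its bases covered. The 9 bins after it held 12 to 61 intervals.

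The densest bin was 7200001 to 7300000, with 247 intervals covering 24.7% of its bases. Its intervals were narrow (median 13 bp), and 46.6% measured 10 bp or less. The bins 4900001 to 5000000, 7800001 to 7900000, 6000001 to 6100000 and 4400001 to 4500000 followed, with 161, 160, 157 and 145 intervals. The most intervals did not mean the most covered bases: the bin from 6000001 to 6100000 was the most covered of the region, at 32.5%, with a median width of 46 bp. Over the 50 bins, count and coverage were closely related (Spearman's rho = 0.93), while count was hardly related to median width (rho = 0.09) or median score (rho = 0.08). These bins share 1 list and are not independent samples.

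The sparsest bins were scattered through the region. The bin from 7000001 to 7100000 held 1 interval of 61 bp, and the densest bin began 100 kb beyond its end. The bins starting at 3800001, 3500001, 6800001 and 5200001 held 12, 14, 17 and 19 intervals. The longest stretch without an interval was 7000873 to 7109287 (108 kb), and the next were 3361851 to 3436848 (74998 bp), 5810394 to 5879546 (69.2 kb), 6295841 to 6355769 (59.9 kb) and 5556411 to 5608781 (52.4 kb). Stretches of at least 10 kb without an interval numbered 87 and made up 36.5% of the region, against 87.1% of the comparison stretch and 83.2% of the autosomes.

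Members were narrow, and many were slivers of a few base pairs. Their widths had a median of 25 bp (interquartile range 4 to 147 bp), against 29 bp (6 to 159 bp) in the comparison stretch and 41 bp over the autosomes. Members no wider than 10 bp numbered 1703, or 40.2%, against 35.2% in the comparison stretch and 30.9% over the autosomes. A single base pair was the whole width of 383 of the 4235 members. It was that of 103 of 1389 intervals in the comparison stretch and 18442 of 344785 over the autosomes. From 8.0 to 8.5 Mb it was that of 66 of 675. Of the 473 windows of 5 Mb, the region had the highest share of intervals of 10 bp or less and ranked 4th from the lowest by median width. The widths changed with the comparison: beyond 8.5 Mb the median width was 46 bp, so that the ratio of medians was 0.543 in place of 0.862, while from 8.0 to 8.5 Mb the median was 16 bp.

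Scores, which are the authors' values and have no stated scale, were low. The median score was 0.0134 in the region, 0.0135 in the comparison stretch and 0.0136 over the autosomes, where the lowest score was 0.0129. Members within 10% of that lowest score made up 62.9%, against 61.1% in the comparison stretch and 58.5% over the autosomes. The top 10% of the list by score (34876 of 348759 intervals, 10%) took in 274 members, or 6.47%, against 103 intervals, or 7.42%, of the comparison stretch. Per Mb, intervals of that class numbered 54.8 in the region, against 8.79 in the comparison stretch. The scores, too, changed with the comparison. Beyond 8.5 Mb the median score was 0.0137, with 56.7% of intervals within 10% of the lowest score and 9.24% in the top 10%. In the part of the comparison stretch up to 8.5 Mb these values were 0.0133, 65.8% and 5.48%. The region ranked second from the lowest of the 473 windows by median score, and 22nd from the lowest by its share of top-score intervals.

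**Figure D3:**
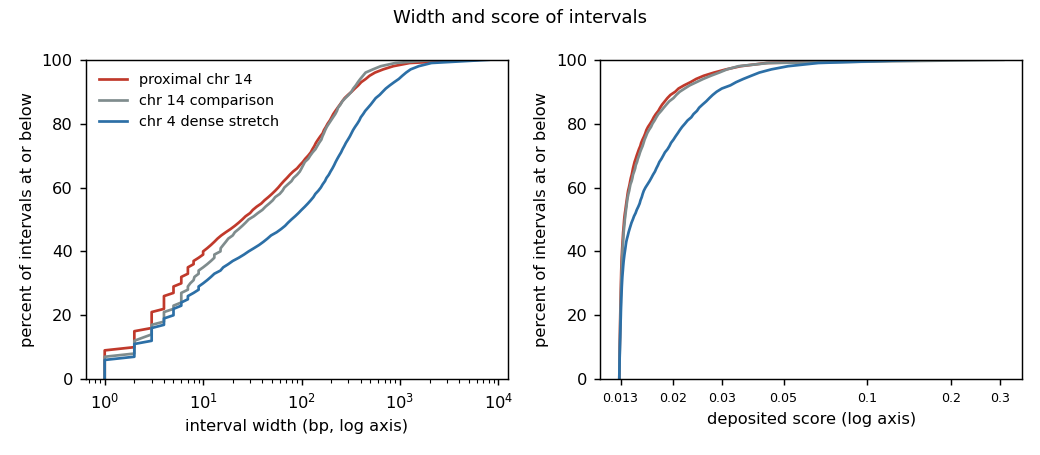
Percent of intervals (y axes) at or below a given width in bp (left, log axis) or a given deposited score (right, log axis), for the proximal region of chromosome 14 (4235 intervals), the comparison stretch (1389) and the dense stretch of chromosome 4 from 145 to 147 Mb (2603). The curves of both stretches of chromosome 14 run close together, and the chromosome 4 curve lies to the right of both, with median widths of 25, 29 and 79 bp. The comparison stretch includes the crowded part up to 8.5 Mb, which holds 675 of its 1389 intervals.

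Wide intervals were also denser along the region, beside the slivers. Members of at least 1 kb numbered 69, or 13.8 per Mb, against 0.853 per Mb in the comparison stretch, where 8 of the 10 such intervals lay between 8.0 and 8.5 Mb. Members of 200 bp or more numbered 783, or 18.5% of the region's intervals, against 18.9% in the comparison stretch and 20% over the autosomes, so their share was not higher. They contributed 73.1% of the covered bases of the region and 67.9% of those of the comparison stretch. The 2356 members that scored below the list's median were typically 5 bp wide (median) and contributed 4.41% of the covered bases. The 274 top-score members, with a median of 557 bp, contributed 41.6%. In the comparison stretch the median was 407 bp over the 103 top-score intervals.

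The widest members came close together. The widest was 4180455 to 4186547 (6093 bp, score 0.0438), and the next ones along, which also ranked among the 5 widest, 4186685 to 4190853 (4169 bp) and 4191387 to 4194736 (3350 bp), followed it closely. Another of the 5 widest, 6033500 to 6037839 (4340 bp), lay inside the longest member of the joined list, 6023187 to 6043522, in which 26 intervals were strung over 20.3 kb with no gap above 500 bp. The remaining one was 7723238 to 7726599 (3362 bp). Shortly before it, 7721166 to 7722015 was among the 5 highest-scoring members.

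The highest score of the region was 0.150, at 4213629 to 4214914, or 11.7 times the lowest score. It was followed by 4438410 to 4439002 (0.115), 6168918 to 6169556 (0.108), 7721166 to 7722015 (0.0996) and 7858711 to 7859262 (0.0905). These 5 members were 552 to 1286 bp wide and lay in different bins. The comparison stretch held higher ones, at 8838426 to 8838983 (score 0.307) and 9118904 to 9119598 (0.285), both beyond 8.5 Mb. Between 8.0 and 8.5 Mb the highest score was 0.0571. The 5 bins richest in top-score members held 90 of the 274, or 32.8%, and 823 of all 4235 members, or 19.4%. They were picked by their top-score count, so the difference between these shares does not show clustering. Over the 50 bins the count of top-score members went with the count of all members, of which it is a part (Spearman's rho = 0.79).

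Members were strung closely together. Of the 4234 gaps between neighbours, 43.7% were no longer than 20 bp, and the median gap was 57 bp. In the comparison stretch 39.1% of gaps were that short and the median gap was 206 bp. When neighbours up to 500 bp apart were joined, 1224 joined members remained, with a median of 205 bp, and 34.4% of them were single intervals. In the comparison stretch joining left 587 with a median width of 167 bp, and 49.9% were single. Joined members were 4.89 times as dense in the region (245 per Mb) as in the comparison stretch (50.1 per Mb). The order of the widths thus turned round on joining, to 1.23 times the comparison.

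Repeated spacing was sought first as exact repeats. Intervals within 20 bp were joined into 2383 blocks, and a run of 4 blocks was matched when its 3 distances, each at least 200 bp, recurred elsewhere in the region within 10 bp, in the same or in reversed order. Only 4 pairs of runs matched, 2 in the same and 2 in reversed order, which involved 28 blocks or 1.17%. In the comparison stretch 0 of 846 blocks did. The pair with the smallest differences was 4173221 to 4174664 with distances of 440, 256 and 343 bp and, 762 kb away, 4935649 to 4937034 with 438, 254 and 345 bp. The other 3 pairs lay 382 to 2669 kb apart, and no pair was part of a longer chain. The run starting at 5722286 took part in 2 of the pairs. Among the 473 windows of 5 Mb the region had the second most matched pairs, but it ranked 10th by the share of blocks in them, and more blocks allow more matches. With runs of only 2 distances 50.02% of blocks matched, and with runs of 4 distances 0.

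No lag stood far above its neighbours. The correlation of covered bases per 1 kb with the same profile shifted along the region had its highest local peak at a lag of 11 kb (0.224), followed by 16 kb (0.180), 20 kb (0.153), 22 kb (0.152) and 77 kb (0.133). Each of these peaks stood no more than 0.02 above the lags 1 kb to either side. In the comparison stretch the highest peaks were at 24 kb (0.254) and 16 kb (0.242). Counting interval starts in place of covered bases put the highest peak at 14 kb (0.139). The decline with distance was not steady. In the region the correlation fell to 0.053 at 33 kb, rose broadly to 0.133 at 77 kb and fell to 0.007 at 112 kb. It was -0.074 at 276 kb, 0.055 at 552 kb and -0.119 at 904 kb. In the comparison stretch it was 0.091 at 74 kb, 0.173 at 254 kb and 0.017 at 1000 kb. The correlations for the comparison stretch include the crowded bins next to the region. Those bins hold 76.7 kb of the 156 kb covered in the comparison stretch. Their part in its correlations was not tested, so the heights for the comparison stretch cannot be set against those for the region.

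**Figure D4:**
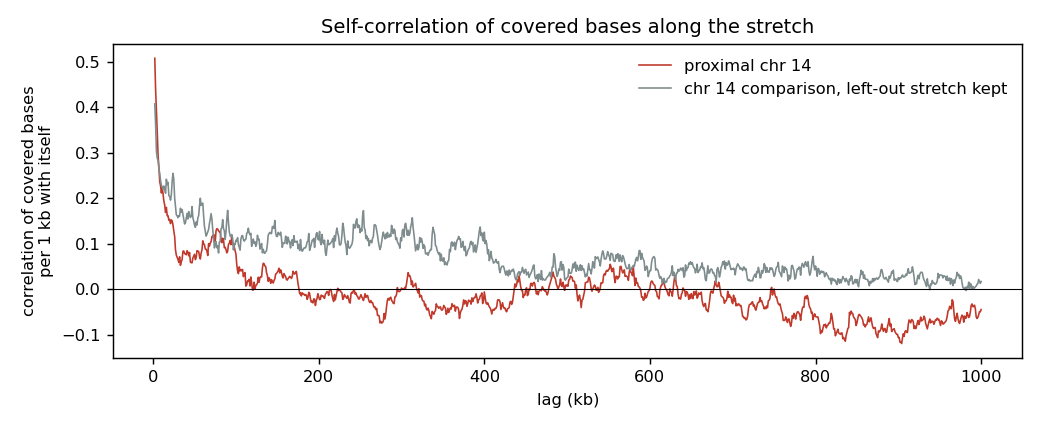
Correlation of covered bases per 1 kb with the same profile shifted by a lag (y axis), for lags of 2 to 1000 kb (x axis), in the proximal region and in the comparison stretch with the left-out stretch kept in. Both curves are lower at the longest lags than at the shortest, with rises between, such as one of the region to 0.133 at 77 kb. The highest peak of the region at 10 kb or more is 0.224 at 11 kb, and that of the comparison stretch is 0.254 at 24 kb. The comparison curve includes the crowded bins next to the region, so its height cannot be set against that of the region.

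Looser likeness was then measured between tiles of 10 kb, a measure added after the exact repeats had been counted. Tiles with at least 5 blocks were compared with every other position of the region that held as many, by Pearson's r of covered bases per 100 bp, in the same and in reversed order. Of 225 tiles, 24 (10.7%) had a counterpart with r of at least 0.8, against 4 of 53 (7.55%) in the comparison stretch. The region had the most such tiles of the 473 windows but also many filled tiles. It ranked 100th by share, which can rest on few tiles, as in a chromosome 12 window with 2 of 5. In the window from 143 to 148 Mb of chromosome 4 the count was 18 of 178 tiles (10.1%). Some offsets recurred among best matches in the same order. Tiles from 5170001, 5350001 and 5490001 matched 1185.1 to 1185.3 kb further on (r = 0.79 to 0.87). Those from 6350001, 6540001 and 6670001 matched back over that distance (r = 0.76 to 0.78). Their matches overlapped the former tiles, so these are the same pairs of places found from the other end. Tiles from 5500001, 5510001 and 5890001 shared 381.7 kb (r = 0.82 to 0.91). The tiles from 5500001 and 5510001 adjoin, and that from 5890001 matched back onto them, so this is a single pair of places. Other windows were not searched for shared offsets, and a cause was not tested.

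Among the 5 most alike pairs, 2 matched in most of their blocks. The tile from 5890001 to 5900000 had its counterpart from 5508301 to 5518300, 382 kb away (r = 0.91). Of the 7 blocks in the tile, 5 overlapped 5 of the 8 in the counterpart. Those blocks were 304, 1144, 374, 94 and 230 bp wide in the tile, and 353, 1217, 377, 127 and 234 bp in the counterpart. Their scores were 0.0146 to 0.0232 in the tile and 0.0149 to 0.0248 in the counterpart, all above the list's median of 0.0137. The tile from 6430001 to 6440000 had its counterpart from 6782601 to 6792600, 353 kb away (r = 0.91). There, 5 of the 6 blocks in the tile overlapped 5 of the 7 in the counterpart. In the other 3 pairs, with r of 0.89 to 0.94, only 1 or 2 blocks overlapped, so that their likeness rested on 1 or 2 wide blocks.

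**Figure D5:**
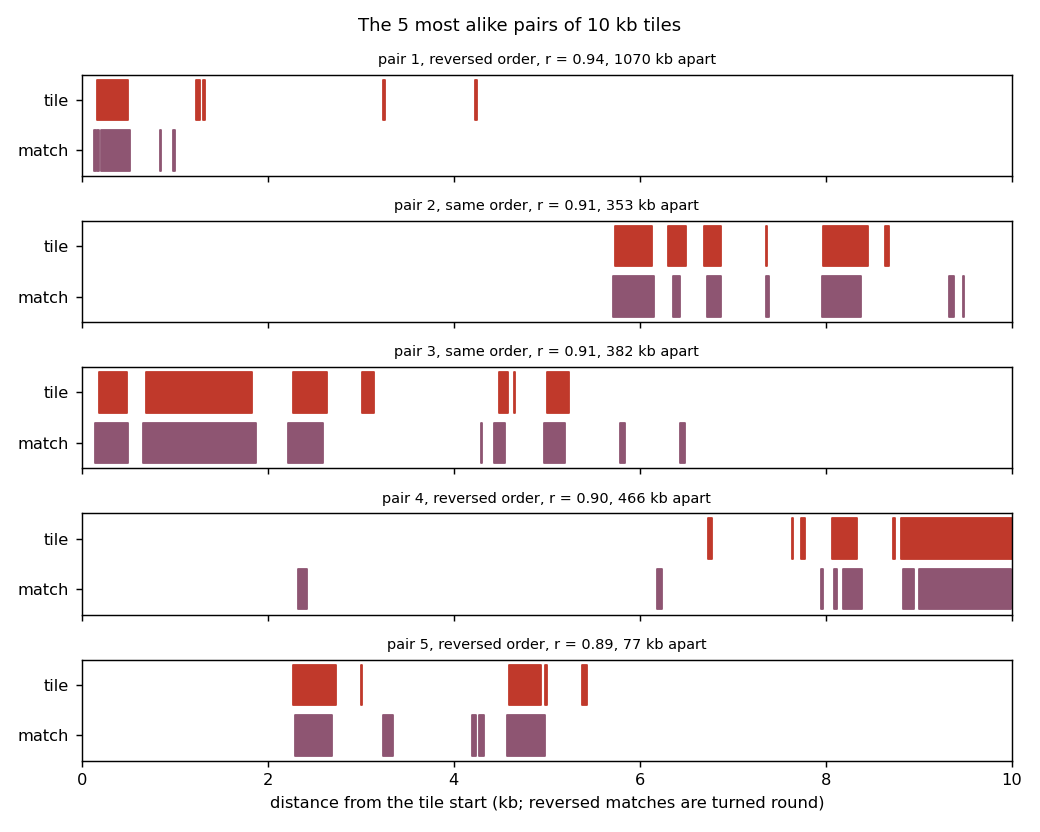
Blocks (intervals joined within 20 bp) in the 5 most alike pairs of 10 kb tiles, drawn by distance from the tile start in kb (x axis), with the tile above and its counterpart below, and blocks under 15 bp drawn at 15 bp. In pairs 2 and 3 most blocks stand one above the other, with 5 blocks overlapping in each. In pair 1 a single block does.

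Shorter stretches of 2 other chromosomes, found as the 3 densest windows of 1 Mb outside chromosome 14, were more filled than the region as a whole. The stretch of chromosome 4 from 145 to 147 Mb had 1302 intervals per Mb and a median width of 79 bp, covered 33.3% of its bases and had 17.2% top-score intervals. The Mb of chromosome 17 from 30 to 31 Mb had 1275 per Mb, a median width of 47 bp, 25.4% covered bases and 8.78% top-score intervals. The proximal region of chromosome 14, with 847 per Mb, 25 bp, 10.5% and 6.47%, was lower than both on each of these measures. Both stretches were picked for their density and are shorter than the region, so these are descriptions. At an equal size of 5 Mb the order of the counts turned round, with 4235 intervals in the region, 3276 in the window of chromosome 4 from 143 to 148 Mb and 3204 in that of chromosome 17 from 28 to 33 Mb. Coverage at that size was 10.5% in the region, 15.8% in the chromosome 4 window and 9.62% in the chromosome 17 window. The part of reads from duplicated sequence in these counts was not tested, so the counts cannot be taken as a measure of open chromatin.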

How the data were processed

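Alignment to build mm9 with Bowtie (no version) is recorded in the submitters' processing notes. F-Seq is named with the deposited list. Its settings, the read filters and the samples that entered are not stated in the sources used. The authors deposited 1 score per interval, of unstated scale. The list has no header and 5 columns, and positions are printed counted from 1. Groups came from the sample titles. The samples cannot be separated in the list, so no test was run and no p-value is given. Depth is unknown, so no counting interval is given.

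Counts, widths, scores, bins, spacings and lag correlations were computed with Python 3.11.15, pandas 2.3.3 and numpy 2.4.6, and promoter identities as 1 minus edit distance over length with edlib 1.3.9.post1. The spacing procedures were tested on simulated intervals that held an exact copy. Copies with shifted or missing blocks were not simulated, so how well they are found is unknown. Named regions were the 5 densest and 5 sparsest bins, the 5 highest-scoring and 5 widest intervals, the 5 longest empty stretches, matched runs and lag peaks. The region, the comparison and these rules were chosen with earlier results of these data known. The edge at 8.5 Mb, the tile comparison, the promoter comparison with its gene sets and the stretches of chromosomes 4 and 17 were chosen after seeing the data. Alternatives were score and width filters, joining, other comparison stretches, bin sizes, tolerances and run lengths. A result that rests on an item withheld for evaluation is not reported here.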

Additional observations from a re-analysis of the deposited data

How the results depend on the processing

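Of 50 alternative values for 7 results, 35 kept their order and stayed within 1.5 times of the reported value. The denser and more covered state of the region held under every score filter, width filter, joining and comparison stretch among them, with density ratios of 4.89 to 13.31 and coverage ratios of 6.295 to 14.85. It did not hold against the crowded stretches described beside these, from 8.0 to 8.5 Mb and on chromosomes 4 and 17, with density ratios of 0.627 to 0.664 and coverage ratios of 0.315 to 0.684. The upper ends came from starting the comparison at 8.5 Mb, chosen after seeing the data, which also gave a width ratio of 0.5435 because it removes the narrow intervals from 8.0 to 8.5 Mb. The median width, 0.862 times the comparison, turned above it in the top 10% by score (1.369), after joining within 500 bp (1.228) and at 200 bp or wider (1.043). The median score, 0.995 times the comparison, turned to 1.027 in the top 10%, so neither order holds for all classes of interval. The excess of matched runs over the comparison, 1.17 percentage points of blocks, was 2.261 with the upper 50% of scores, 0.0 in the top 10%, 0.0 after joining within 500 bp, 0.3357 with a tolerance of 5 bp, 11.12 with 20 bp, 41.39 with runs of 2 distances and 0.0 with runs of 4. The highest lag peak was 0.1385 with interval starts, against 0.224. The cause was not tested where none is given. No paired analysis was possible because the samples are pooled in the list and no result comes from a test. No replicate could be left out. Since the depth is unknown, a bare stretch cannot be read as closed chromatin.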
